A study of Mus musculus with 20 samples.

Results

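Cyp2b9, Cyp2b10 and Cyp2b13 are 3 mouse genes of the cytochrome P450 subfamily 2B, and their expression was followed in 20 liver and liver tumour arrays. They were taken as the genes named by a probe set with a single gene symbol, which gave 3 of 18193 measured genes and 5 of 45037 probe sets. Cyp2b10 has 3 probe sets, and Cyp2b9 and Cyp2b13 have 1 each. All tissue came from male C57BL/6 mice with a conditional APCko genotype, a triggerable knockout of the tumour suppressor Apc, and no liver without that allele was analysed here. There were 4 groups of 5 arrays. Adenomas (APCko_Adenoma) came from mice on a diet with 0.05% phenobarbital, carcinomas (APCko_Carcinoma) from mice without it, and tumour-free liver tissue from mice with phenobarbital (PB_NT) and without it (H2O_NT). Treatment lasted 9 months in each group. The sample protocols state a single tamoxifen injection of 0.75 mg at 6 weeks of age, with the diets starting 1 week later, whereas the series text speaks of the carcinogen DEN, and the difference was not settled. The untreated group carries the label H2O, while its protocol states standard chow. The labels do not say in which cells the knockout acts, nor whether the arrays of a group are from separate mice, so the p-values reflect only how much these samples varied.

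Cytochromes P450 of the 2B subfamily are haem enzymes of the hepatocyte endoplasmic reticulum that oxidise drugs, steroids and other fat-soluble compounds. Phenobarbital leads to activation of the constitutive androstane receptor CAR (gene Nr1i3), which pairs with a retinoid X receptor and binds enhancers of Cyp2b genes. Cyp2b10 is the standard readout of CAR activity in mouse liver and the counterpart of human CYP2B6 and rat CYP2B1. Cyp2b9 and Cyp2b13 are known for higher expression in female than in male mouse liver, a difference set by the pattern of growth hormone release. In the healthy lobule, P450 induction by phenobarbital is strongest around the central vein, where Wnt signalling is active.

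Values are log2 expression values that the authors deposited, 1 per probe set and array, with a median of 5.57 over the whole table and array medians from 5.52 to 5.63. Markers of hepatocytes, the cells that make these enzymes, were at high levels in liver and adenomas. The mean of 19 such markers lay at 12.09 to 12.83 in adenomas, 6.16 to 10.2 in carcinomas, 13.05 to 13.13 in phenobarbital-treated liver and 13.16 to 13.34 in untreated liver. All 19 fell in carcinomas relative to untreated liver by limma (adjusted p under 0.05), where 37.6% of all genes fell. Untreated arrays 3 and 4 stood apart from the other 3 of their group: the mean of 11 stellate cell and fibroblast markers was 9.09 and 9.02 there, against 8.12 to 8.38, and Glul, a pericentral Wnt target, was at 12.39 and 12.25, against 13.13 to 13.37.

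The 3 genes lie on the forward strand of chromosome 7, at chr7:25897658-25926624 for Cyp2b10, chr7:26061388-26096197 for Cyp2b13 and chr7:26173350-26210661 for Cyp2b9 (RefSeq, GRCm38.p6). Their upstream sequences are shown because the genes with the near-identical ones, Cyp2b9 and Cyp2b13, read differently on some of the adenomas described below. Each window of 143 bases runs from 250 to 108 bases before the start used by the RefSeq promoter table and ends before any of the annotated gene spans. The table's starts of Cyp2b9 and Cyp2b13 lie inside those spans, so the windows end 49 bases before the span for Cyp2b9, 1 base before it for Cyp2b13 and 108 bases before it for Cyp2b10. The windows lie at chr7:26173159-26173301 for Cyp2b9, chr7:26061245-26061387 for Cyp2b13 and chr7:25897408-25897550 for Cyp2b10. Capitals in Cyp2b9 and Cyp2b13 mark the positions at which these genes differ, and capitals in Cyp2b10 mark bases that did not match Cyp2b9 in a global alignment.
Cyp2b9: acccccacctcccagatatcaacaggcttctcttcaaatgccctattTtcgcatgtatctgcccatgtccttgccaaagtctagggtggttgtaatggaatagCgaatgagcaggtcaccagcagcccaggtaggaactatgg
Cyp2b13: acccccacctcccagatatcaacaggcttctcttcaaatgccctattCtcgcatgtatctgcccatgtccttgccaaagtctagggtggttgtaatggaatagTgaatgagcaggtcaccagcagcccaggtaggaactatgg
Cyp2b10: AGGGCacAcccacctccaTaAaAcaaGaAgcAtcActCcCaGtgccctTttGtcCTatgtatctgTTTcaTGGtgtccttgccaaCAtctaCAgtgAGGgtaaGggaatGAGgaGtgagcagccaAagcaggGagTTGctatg
Cyp2b9 and Cyp2b13 were identical at 141 of 143 bases (98.6%). The 2 differences, written from Cyp2b13 to Cyp2b9 and counted from the 5′ end of the window, were C48T and T104C. Cyp2b10 matched either of them at 100 of 152 aligned columns (65.8%), with 34 mismatches and 18 gap columns. The letters AGGTCA, a half-site bound by many nuclear receptors, were searched on both strands and stood at position 113 in Cyp2b9 and Cyp2b13, and in 8.14% of 32851 promoter windows of the same length. They did not occur in this window of Cyp2b10. TTCNNNGAA, the letters of a STAT5 site, occurred in none of the 3 windows and in 4.17% of all windows. The distal phenobarbital-responsive enhancers of Cyp2b genes lie outside these windows.

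Levels of Cyp2b10 (probe set 1451787_at) were 7.64, 13.22, 11.01, 12.46 and 9.24 in adenomas 1 to 5, and 5.46, 5.21, 5.77, 5.08 and 4.85 in carcinomas 1 to 5. In phenobarbital-treated liver they were 12.97, 13.00, 13.46, 13.11 and 13.11, and in untreated liver 6.56, 6.69, 7.74, 8.90 and 7.64. Phenobarbital-treated livers were tightly grouped and high, carcinomas were low throughout, and the adenomas ran from the level of untreated liver to that of treated liver. Group means with SD (n = 5 each) were 10.71 ± 2.29 in adenomas, 5.28 ± 0.36 in carcinomas, 13.13 ± 0.19 in phenobarbital-treated liver and 7.51 ± 0.95 in untreated liver.

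Cyp2b9 (probe set 1419590_at) was at 5.92, 9.77, 8.52, 6.10 and 11.76 in adenomas and at 5.03, 4.88, 5.17, 4.61 and 4.88 in carcinomas. It was at 11.47, 11.30, 11.63, 11.30 and 10.82 in phenobarbital-treated liver and at 6.45, 7.81, 5.84, 5.27 and 5.91 in untreated liver. Adenoma 5 was above all 5 treated livers, whereas adenomas 1 and 4 were within the range of untreated liver. Means were 8.42 ± 2.48 in adenomas, 4.91 ± 0.21 in carcinomas, 11.30 ± 0.30 in phenobarbital-treated liver and 6.26 ± 0.96 in untreated liver (SD, n = 5 each).

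Cyp2b13 (probe set 1449479_at) was at 5.19, 9.75, 6.24, 7.87 and 7.25 in adenomas and at 5.22, 4.94, 4.83, 5.24 and 4.82 in carcinomas. It was at 11.88, 11.62, 11.78, 11.44 and 10.93 in phenobarbital-treated liver and at 5.96, 6.05, 5.68, 5.59 and 5.88 in untreated liver. No adenoma reached the lowest treated liver, and adenoma 1 lay below every untreated liver. Means were 7.26 ± 1.73 in adenomas, 5.01 ± 0.21 in carcinomas, 11.53 ± 0.37 in phenobarbital-treated liver and 5.83 ± 0.19 in untreated liver (SD, n = 5 each).

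**Figure D1:**
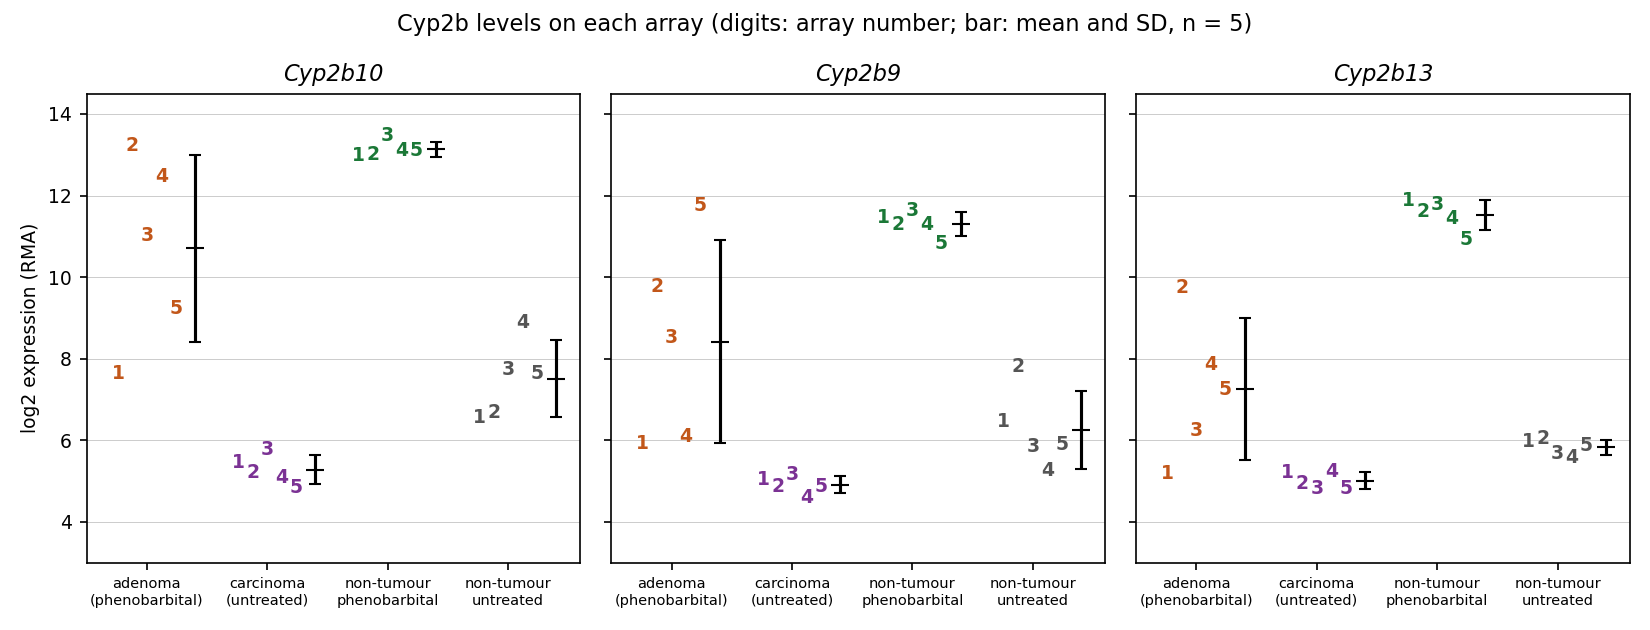
Log2 expression of Cyp2b10, Cyp2b9 and Cyp2b13 on each array, by group from left to right: adenomas, carcinomas, phenobarbital-treated and untreated non-tumour liver. Digits are array numbers and bars give the mean and SD (n = 5). Treated livers cluster near 13.13, 11.30 and 11.53, while the adenomas spread with SDs of 2.29, 2.48 and 1.73.

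In tumour-free liver, phenobarbital raised all 3 genes. Cyp2b10 was 49.2-fold higher in treated than in untreated liver (95% confidence interval 17.2 to 141), a log2 difference of 5.62 (SE 0.73, adjusted p = 0.00048 by limma). For Cyp2b9 the rise was 33.1-fold (10.7 to 102), or 5.05 on the log2 scale (SE 0.78, adjusted p = 0.0031). Cyp2b13 rose 52.0-fold (24.5 to 110), or 5.70 on the log2 scale (SE 0.52, adjusted p = 3.6e-06). Among all genes, 0.192% rose and 0.022% fell at this threshold, an adjusted p under 0.05. The 5 treated livers lay above the 5 untreated livers for each of the 3 genes, a separation found upwards in 2.39% of all genes, and the exact two-sided permutation p was 0.0079, the smallest that 5 against 5 arrays can give. The intervals of the 3 genes overlap widely, and no difference between the genes was tested. RMA shrinks folds of dim probe sets, and the untreated mean of Cyp2b13, 5.83, is near the median of the table. Without untreated arrays 3 and 4, the Cyp2b9 difference was 4.58 and missed the threshold (limma adjusted p = 0.064, over a range of 7.2e-06 to 0.064 among all alternatives).

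Cyp2b10 and Cyp2b9 varied among the untreated livers, and not on the same arrays. Cyp2b10 was highest on untreated array 4 (8.90), where Cyp2b9 was lowest (5.27), and Cyp2b9 was highest on array 2 (7.81), where Cyp2b10 was at 6.69. The SD over untreated livers was 0.95 for Cyp2b10 and 0.96 for Cyp2b9, with a larger SD in 0.385% and 0.341% of all genes. Cyp2b13 had an SD of 0.19 there, near the all-gene median of 0.17. Nr1i3, the gene of CAR, was at 8.99 and 8.38 on untreated arrays 3 and 4, against 9.75 to 9.93 on the other 3, so the array with the highest untreated Cyp2b10 had the lowest Nr1i3. The part of those arrays' different marker levels in the Cyp2b10 spread was not tested.

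In carcinomas, Cyp2b10 fell to 5.28, against 7.51 in untreated liver. The log2 difference was -2.23 (SE 0.73, 95% interval -3.75 to -0.71, limma adjusted p = 0.011), a 4.70-fold lower level. Cyp2b9 was at 4.91 in carcinomas and 6.26 in untreated liver, a difference of -1.34 (SE 0.78, -2.97 to 0.28, adjusted p = 0.13). Cyp2b13 was at 5.01 in carcinomas and 5.83 in untreated liver, a difference of -0.82 (SE 0.52, -1.90 to 0.27, adjusted p = 0.165). For each gene all 5 carcinomas lay below all 5 untreated livers (exact two-sided permutation p = 0.0079). Such falls were common: 37.6% of all genes fell and 31.4% rose at this threshold, and in 27.8% every carcinoma was below every untreated liver, with an all-gene median difference of -0.12.

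The Cyp2b9 and Cyp2b13 results in carcinomas depended on which arrays set the spread. The limma fit took its spread from all 4 groups, the widely spread adenomas included. Fitted on carcinomas and untreated liver alone, the same differences had adjusted p-values of 0.01 for Cyp2b9 and 0.00016 for Cyp2b13, the adjusted p-values of the alternatives ranging from 0.01 to 0.301 and from 0.00016 to 0.239. Leaving out adenoma 5 gave an adjusted p of 0.045 for Cyp2b9, and leaving out adenoma 2 gave 0.038 for Cyp2b13. Without untreated arrays 3 and 4, the Cyp2b10 difference was -1.69 (adjusted p = 0.086, alternatives from 0.00026 to 0.086). The probe sets tested here read between 4.61 and 5.77 in carcinomas, below or about the table's median, and the other 2 of Cyp2b10 read between 3.81 and 4.42. Whether these levels lie above background was not tested. Beside the hepatocyte markers, 8 of 11 endothelial markers fell in carcinomas (array means 5.56 to 6.43, against 8.0 to 8.37 in untreated liver), and 7 of 11 stellate cell and fibroblast markers rose and 1 fell (10.43 to 11.48, against 8.12 to 9.09). Of all genes, 37.6% fell and 31.4% rose there. The part of these markers in the Cyp2b levels was not tested, and in bulk tissue fewer hepatocytes and less RNA per hepatocyte cannot be told apart.

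In adenomas, grown under phenobarbital, all 3 genes were below phenobarbital-treated liver. Cyp2b13 was furthest below, but the intervals of the 3 genes overlap and no difference between the genes was tested. Cyp2b13 was 19.3-fold lower (95% interval 9.09 to 40.9), a log2 difference of -4.27 (SE 0.52, limma adjusted p = 7.2e-06), and all 5 adenomas lay below all 5 treated livers (exact two-sided permutation p = 0.0079). Cyp2b9 was 7.40-fold lower (2.40 to 22.9), a difference of -2.89 (SE 0.78, adjusted p = 0.0099), and Cyp2b10 was 5.33-fold lower (1.86 to 15.3), a difference of -2.41 (SE 0.73, adjusted p = 0.02). The groups overlapped for both, through adenoma 5 for Cyp2b9 and adenoma 2 for Cyp2b10, and the exact permutation p was 0.048 and 0.04. Single adenomas moved the differences: Cyp2b9 was -3.73 without adenoma 5 and -2.26 without adenoma 1, Cyp2b10 was -3.04 without adenoma 2 and -1.65 without adenoma 1, and Cyp2b13 was -4.89 without adenoma 2, each still called. Of all genes, 11.2% fell and 13.4% rose in this comparison, and 8.99% had every adenoma below every treated liver. The fall of Cyp2b10 was the least firm: it was -2.05 without adenoma 5 (adjusted p = 0.053), and -2.41 with adjusted p = 0.061 when the other groups were left out of the fit, in a range of 0.002 to 0.066 over the alternatives. Fitted on adenomas and treated liver alone, the limma adjusted p was 0.042 for Cyp2b9 and 0.00078 for Cyp2b13. The SEs and intervals above use a spread shared by all 4 groups. The SDs in adenomas and treated liver were 2.48 and 0.30 for Cyp2b9, 2.29 and 0.19 for Cyp2b10, and 1.73 and 0.37 for Cyp2b13. These intervals can therefore be too narrow for this comparison. Array means of the 19 hepatocyte markers were lower in adenomas as well (12.09 to 12.83, against 13.05 to 13.13 in treated liver). Of these 19 markers, 3 were called lower and 16 did not pass, with a median difference of -0.24, against -0.03 over all genes. Of the 11 stellate cell and fibroblast markers 5 rose and 3 fell in adenomas (array means 8.26 to 9.85, against 8.39 to 8.77 in treated liver). The part of these markers in the differences was not tested.

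Adenomas were above carcinomas for all 3 genes. The log2 difference was 5.44 for Cyp2b10 (SE 0.73, limma adjusted p = 2.1e-06), 3.50 for Cyp2b9 (SE 0.78, adjusted p = 0.00064) and 2.25 for Cyp2b13 (SE 0.52, adjusted p = 0.0009). These are folds of 43.4, 11.3 and 4.76 in that order. Single adenomas moved them: Cyp2b10 was 6.21 without adenoma 1 and 4.81 without adenoma 2, Cyp2b9 was 4.13 without adenoma 1 and 2.67 without adenoma 5, and Cyp2b13 was 1.63 without adenoma 2, all with the call kept. Fitted on adenomas and carcinomas alone, the limma adjusted p of Cyp2b10 was 0.00051. Over the alternatives the adjusted p was at most 0.011 for Cyp2b9 and 0.017 for Cyp2b13. Of all genes, 33.6% were called higher in adenomas. No adenoma overlapped a carcinoma for Cyp2b10 and Cyp2b9, a separation seen upwards in 21.8% of all genes, whereas for Cyp2b13 adenoma 1 (5.19) lay below carcinomas 1 and 4 (5.22 and 5.24; exact two-sided permutation p = 0.024). Diet and tumour stage differ together here and cannot be told apart.

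The tumour effect under phenobarbital (adenoma minus treated liver) was set against that without it (carcinoma minus untreated liver). For Cyp2b13 the effects differed by -3.45 on the log2 scale (SE 0.73, 95% interval -4.98 to -1.92, limma adjusted p = 0.00065), so the adenoma effect was the more negative, and the difference of effects was -4.07 without adenoma 2. This was called downwards in 23.3% of all genes. For Cyp2b9 the difference of effects was -1.54 (SE 1.10, -3.84 to 0.76, adjusted p = 0.264), and for Cyp2b10 it was -0.18 (SE 1.03, -2.33 to 1.97, adjusted p = 0.9). Those intervals leave room for differences of either sign. Leaving out adenoma 5, the array with the highest Cyp2b9, moved the Cyp2b9 value to -2.38 (adjusted p = 0.026, alternatives from 0.026 to 0.5). The means of Cyp2b13 in carcinomas and untreated liver, 5.01 and 5.83, were both near the bottom of its range.

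**Figure D2:**
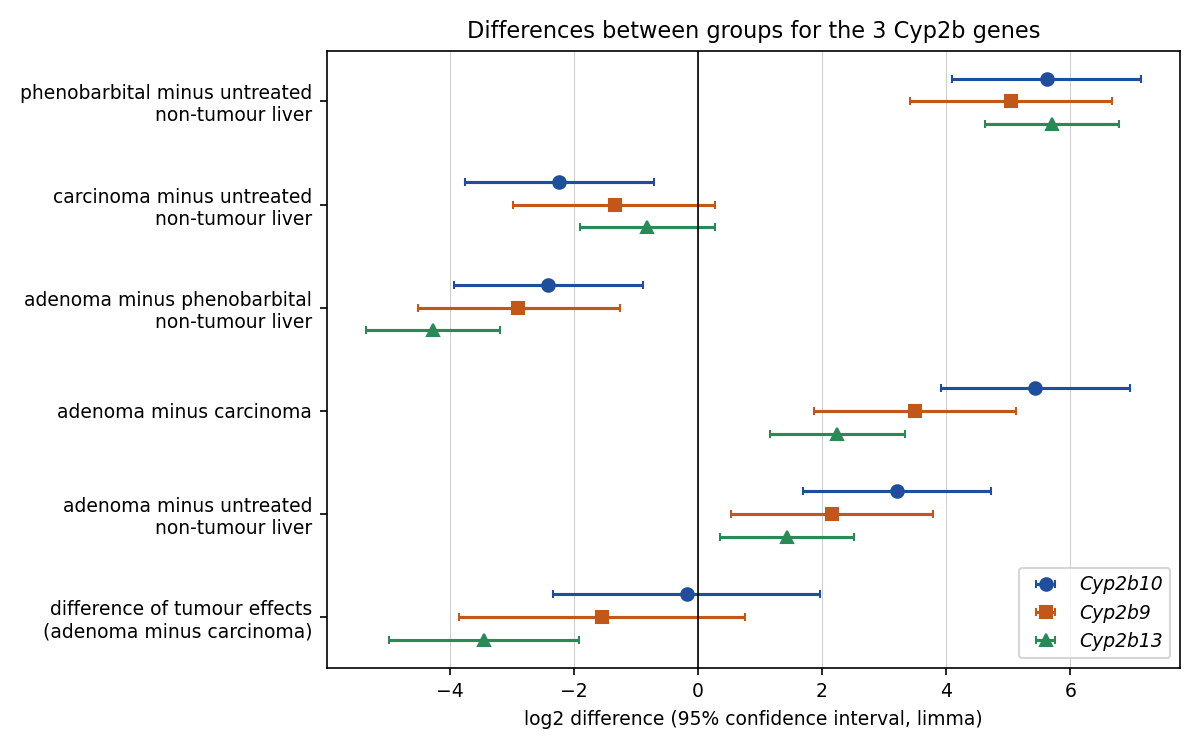
Log2 differences between groups with 95% confidence intervals for Cyp2b10, Cyp2b9 and Cyp2b13 (limma, 5 arrays a group). The intervals take their spread from all 4 groups. A dot right of 0 means higher in the group named first. The intervals of the 3 genes overlap for phenobarbital in non-tumour liver. They also overlap for adenoma minus treated liver, where the differences run from -2.41 for Cyp2b10 to -4.27 for Cyp2b13.

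For each gene the group means fell in the same order: phenobarbital-treated liver highest, then adenomas, untreated liver and carcinomas. The step between adenomas and untreated liver was tested as a comparison added after the values were seen. Cyp2b10 was 3.21 higher in adenomas than in untreated liver (SE 0.73, limma adjusted p = 0.0027), with overlapping groups (exact permutation p = 0.032). Cyp2b9 was 2.16 higher (SE 0.78, adjusted p = 0.048, exact permutation p = 0.087) and Cyp2b13 1.43 higher (SE 0.52, adjusted p = 0.049, exact permutation p = 0.119). The Cyp2b10 difference was 3.98 without adenoma 1 and 2.58 without adenoma 2, still called. In this comparison 13.8% of all genes were called higher. For Cyp2b9 and Cyp2b13 the call did not hold: it was lost in 24 and 26 of 32 alternatives, including 17 and 18 of the 20 in which 1 array was left out. It was kept without untreated array 2, adenoma 1 or adenoma 4 for Cyp2b9, and without adenoma 1 or adenoma 3 for Cyp2b13. The lowest values were 1.32 without adenoma 5 for Cyp2b9 and 0.81 without adenoma 2 for Cyp2b13.

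The spread between adenomas was among the widest of any gene. The SD over the 5 adenomas was larger in 17 of 18193 genes than for Cyp2b10 (0.0934%), in 8 than for Cyp2b9 (0.044%) and in 75 than for Cyp2b13 (0.412%), against an all-gene median SD of 0.23. In carcinomas the SD of the 3 genes was 0.21 to 0.36, against a median of 0.21. The adenomas did not keep 1 order across the genes. Adenoma 1 was lowest for all 3 genes, and its differences from the untreated mean were 0.13 for Cyp2b10, -0.33 for Cyp2b9 and -0.64 for Cyp2b13. Adenoma 2 was highest for Cyp2b10 and Cyp2b13, with differences from the treated mean of 0.09 and -1.78. Adenoma 4 held the second rank for Cyp2b10, at -0.67 from the treated mean, but rank 4 for Cyp2b9, at -5.21. Adenoma 5 had the highest Cyp2b9, at 0.46 from the treated mean, and rank 4 for Cyp2b10, at -3.89. On that array Cyp2b13 was at -4.28 from the treated mean. The upstream windows of Cyp2b9 and Cyp2b13 differ at 2 of 143 bases, and their part in these levels was not tested.

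**Figure D3:**
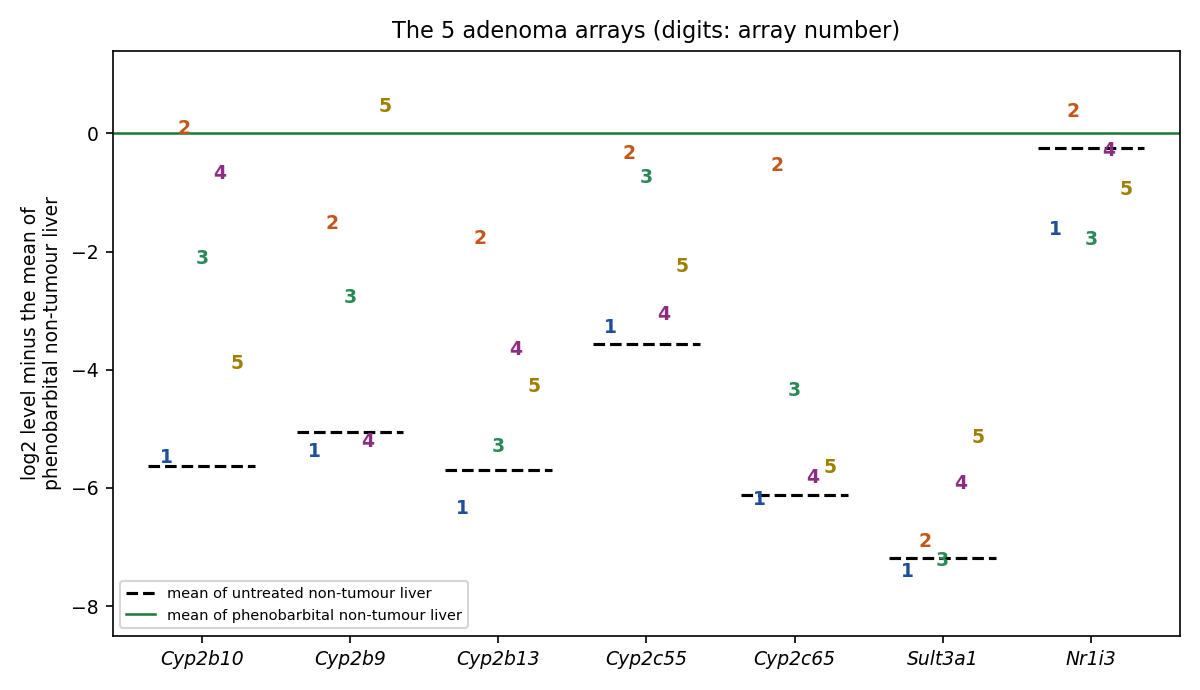
Log2 level of the Cyp2b genes and of Cyp2c55, Cyp2c65, Sult3a1 and Nr1i3 on each adenoma array, as the difference from the mean of phenobarbital-treated non-tumour liver (green line at 0). Digits are adenoma array numbers and dashed lines the mean of untreated liver. Adenoma 1 sits near the untreated mean for every gene except Nr1i3, where it is at -1.38 from it, and adenoma 5 is at 0.46 for Cyp2b9 but -3.89 for Cyp2b10.

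Nr1i3 itself varied between adenomas, at 8.0, 9.99, 7.83, 9.34 and 8.69, against 9.48 to 10.0 in phenobarbital-treated liver. The difference was -0.85 (SE 0.34, limma adjusted p = 0.077), and it passed without adenoma 2 (-1.16, adjusted p = 0.0095), with array weights (-1.07, adjusted p = 0.016) and without untreated arrays 3 and 4 (adjusted p = 0.047). Adenomas 2 and 4, with the most Nr1i3, also had the most Cyp2b10 and Cyp2b13, but adenoma 5, with the most Cyp2b9, had rank 3 in Nr1i3. With 5 adenomas no correlation was computed. Markers of the other lobule zone and of the Wnt pathway also moved: Cyp2f2, a periportal P450 gene, was between 5.43 and 9.67 in adenomas (difference from treated liver -5.93, SE 0.47, adjusted p = 3.7e-08), highest in adenoma 5, and Axin2, a Wnt feedback target, was between 8.21 and 10.07, highest in adenoma 1 and lowest in adenoma 4. Glul was alike on all 5, at 14.27 to 14.36. The part of these genes in the Cyp2b levels was not tested.

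The 3 probe sets of Cyp2b10 gave the same order of groups but not the same folds. Probe set 1422257_s_at averaged 11.16 ± 2.14 in adenomas, 4.14 ± 0.18 in carcinomas, 13.24 ± 0.07 in phenobarbital-treated liver and 7.38 ± 1.27 in untreated liver, and 1425645_s_at averaged 11.25 ± 2.13, 4.07 ± 0.20, 13.17 ± 0.09 and 7.58 ± 1.28 in the same order (SD, n = 5 each). On a single array the 3 probe sets were 0.21 to 0.89 apart in adenomas, 0.96 to 1.63 apart in carcinomas, 0.12 to 0.23 apart in treated liver and 0.29 to 0.75 apart in untreated liver. In the fit of every probe set, all 3 passed for phenobarbital (5.60 to 5.87, where 0.127% of all probe sets passed as higher), for the fall in carcinomas (34.9% passed as lower) and for adenomas above carcinomas (28.6% passed as higher). The fall in carcinomas was -3.23 and -3.50 for the _s_at probe sets, against -2.23 for 1451787_at, and adenomas were above carcinomas by 7.02 and 7.18, folds of 129 and 145, against 5.44 for 1451787_at. For adenomas below treated liver, where 9.18% of all probe sets passed as lower, 1422257_s_at passed at -2.08 (limma adjusted p = 0.046) and 1425645_s_at, at -1.93, did not (adjusted p = 0.066). The difference of tumour effects had the other sign, 1.15 and 1.58, with adjusted p-values of 0.39 and 0.227. Probe sets ending in _s_at can bind several transcripts of a family, and binding of other Cyp2b transcripts was not tested.

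**Figure D4:**
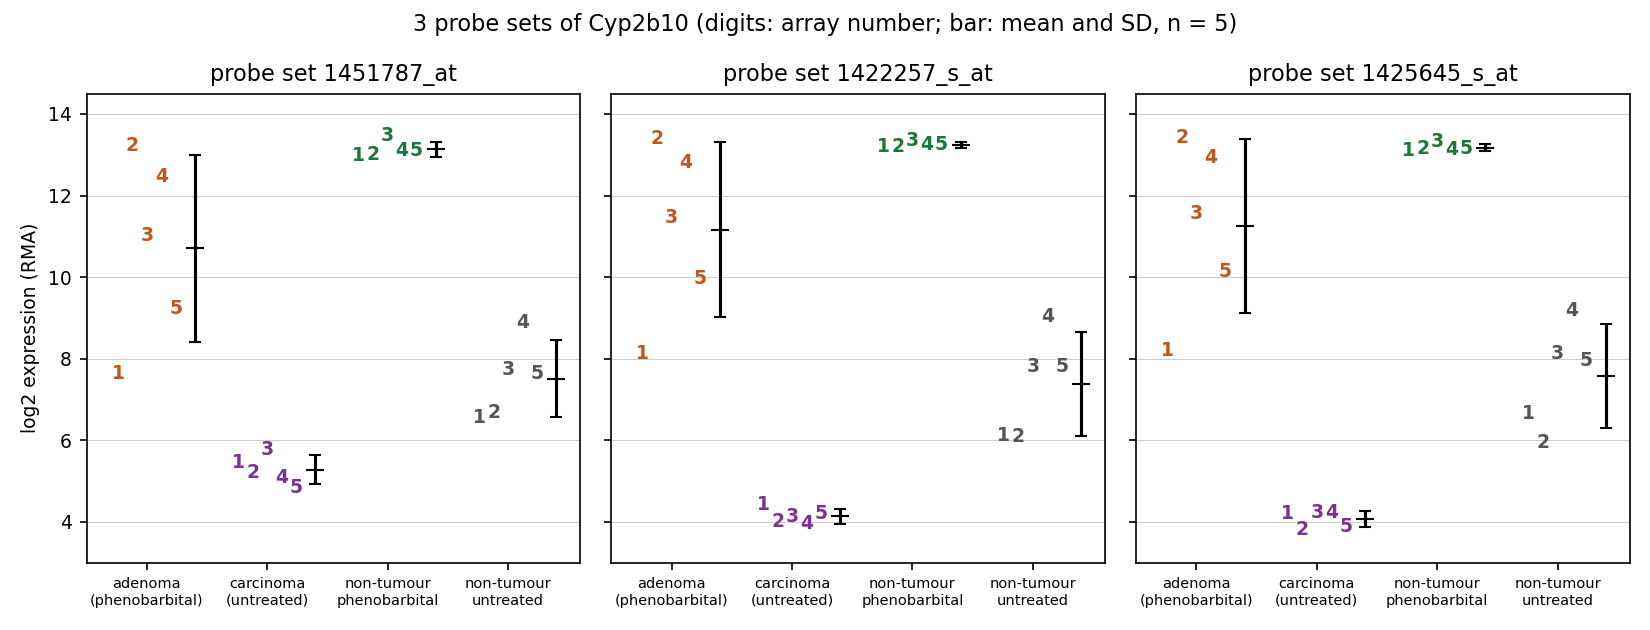
Log2 expression from the 3 probe sets of Cyp2b10 on each array, by group as in the plot of all members (digits are array numbers, bars the mean and SD, n = 5). The order of groups is shared, and carcinomas read 4.07 to 5.28 on average depending on the probe set.

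Other genes of the CAR pathway were described by lists. Of 17 measured genes for the receptor and its partner factors, none passed by limma in treated against untreated liver (1 at an unadjusted p under 0.05), and Nr1i3 differed by 0.24 (SE 0.34, adjusted p = 1). In carcinomas 6 of the 17 rose and 8 fell, among those that fell Nr1i2, the gene of the related receptor PXR (-4.10), Hnf4a, a hepatocyte transcription factor (-3.87), and Egfr, whose protein phenobarbital binds (-4.93). Of all genes, 31.4% rose and 37.6% fell there. In adenomas against treated liver 2 fell, Nr0b2, a corepressor (-1.50), and Ncoa1, a coactivator (-0.63), where 11.2% of all genes fell. Of 11 measured genes for electron transfer to P450s and haem synthesis, none passed by limma under phenobarbital (2 at an unadjusted p under 0.05), 9 fell in carcinomas and 1 fell in adenomas. Alas1, the rate-limiting enzyme of haem synthesis, averaged 12.33 in treated and 11.19 in untreated liver (1.14, SE 0.27, adjusted p = 0.117). That difference passed without untreated array 1 (1.41, adjusted p = 0.0084) and with array weights (adjusted p = 0.015). Alas1 fell by 2.91 in carcinomas and by 0.95 in adenomas relative to treated liver.

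Of 17 further P450 genes known to respond to CAR or PXR, 2 rose in treated liver, Cyp2c65 (6.12, SE 0.68, limma adjusted p = 5.9e-05) and Cyp2c55 (3.57, SE 0.46, adjusted p = 0.00048), with a list median of 0.43 against 0.0 over all genes. In adenomas 5 of the 17 fell relative to treated liver and none rose (median -0.67 against -0.03), again with Cyp2c65 (-4.51) and Cyp2c55 (-1.94). In carcinomas 14 fell (median -5.14 against -0.12), for example Cyp2c37 (-6.56). Of all genes, 0.192% rose under phenobarbital, 11.2% fell in adenomas against treated liver and 37.6% fell in carcinomas. Of 37 other CAR-responsive enzymes, transporters and growth genes, 9 rose under phenobarbital, among them Sult3a1, a sulfotransferase (7.19), Cbr3, a carbonyl reductase (3.68), and Abcc4, an efflux pump (3.39), and none fell. In adenomas against treated liver 5 of these 37 rose and 9 fell, where 13.4% of all genes rose and 11.2% fell. Sult3a1 differed by -6.52, with 3.6 to 5.87 on the 5 adenomas and 9.9 to 11.88 in treated liver, whereas Abcc4 was 1.61 higher in adenomas than in treated liver (adjusted p = 0.014). In carcinomas against untreated liver 5 of the 37 rose and 26 fell (median -2.27 against -0.12). Abcc4 was among those that rose there (4.66, limma adjusted p = 2.5e-08). Of all genes, 31.4% rose and 37.6% fell in carcinomas. When only treated and untreated liver were fitted, 6 of the 17 and 24 of the 37 rose. In that fit 186 of all 18193 genes rose, against 35 in the fit of all 4 groups.

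The Cyp2 gene cluster of chromosome 7 holds further P450 genes beside the 3. Cyp2b19, a family member known from skin, was between 3.05 and 4.07 on all 20 arrays. Of 5 measured neighbours, 1 rose under phenobarbital, Cyp2g1, a P450 gene first known from the nose (0.97, SE 0.16, adjusted p = 0.0091 by limma), and 3 fell in adenomas against treated liver. These were Cyp2f2, Cyp2g1 (-1.32) and Cyp2a12 (-1.06). Without untreated arrays 3 and 4, the phenobarbital rise of Cyp2g1 was 0.88 and missed the threshold (limma adjusted p = 0.116). In carcinomas 4 fell, with Cyp2a12 at -6.82. The shares over all genes were 0.192% for rises under phenobarbital, 11.2% for falls in adenomas and 37.6% for falls in carcinomas. Cyp2b23 was not analysed here.

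Cyp2b9 and Cyp2b13 are female-biased in mouse liver, and the other genes with a sex bias were counted beside them. Of 25 further female-biased genes, 5 rose under phenobarbital and none fell, including Sult3a1, which is in the list above too, Hao2, a hydroxy acid oxidase (3.14), and Slc22a27, a transporter (2.06), with a median of 0.37. Of 28 male-biased genes none rose and 2 fell, Serpina4-ps1 (-2.80) and Socs2, with a median of -0.48. Both counts were unstable: the 5 female-biased rises became 2 without treated array 3 or without untreated arrays 3 and 4 together, and 3 without treated array 1 or 2 or untreated array 1, 2 or 4. The 2 male-biased falls became 0 without treated array 1, 2 or 3, 1 without treated array 4 or any 1 untreated array, 7 with array weights and 6 with only treated and untreated liver fitted. Of all genes, 0.192% rose and 0.022% fell under phenobarbital. Falls over all 18193 genes numbered 4, against 55 with array weights and 79 with only treated and untreated liver fitted. In adenomas against treated liver, 5 female-biased genes rose and 5 fell, whereas 1 male-biased gene rose and 15 fell (13.4% and 11.2% of all genes), for example Elovl3, a fatty acid elongase (-5.74), and Mup3, a urinary protein (-5.21). In carcinomas 2 of the 25 rose and 14 fell, and 25 of the 28 fell, where 31.4% of all genes rose and 37.6% fell. Socs2, an inhibitor induced by growth hormone and 1 of 13 measured genes of that axis, was the single one called under phenobarbital (-1.91, SE 0.39, limma adjusted p = 0.049). That call was lost without any 1 of the treated or untreated arrays (adjusted p of 0.064 to 0.171), and the mean of its probe sets gave -0.76 (adjusted p = 0.124). Of the 13, 1 rose and 4 fell in adenomas against treated liver. Of 25 pericentral and Wnt target genes, 1 rose (Rhbg, an ammonium transporter) and none fell under phenobarbital, and 16 rose and none fell in adenomas against treated liver, where the Cyp2b genes were lower. In carcinomas against untreated liver 11 of these 25 rose and 14 fell (median -1.44 against -0.12 over all genes).

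Each gene had its own nearest genes, ranked by Pearson's r over the 20 arrays. The arrays form 4 groups with shared diets and tissues, so r reflects the group means as well as single arrays, and it is given as a description. For Cyp2b10 the highest r was with Cyp2c55 (0.938), then Hao2 (0.897) and the transporter genes Slc22a26 (0.89), Slc22a27 (0.881) and Slc22a29 (0.875). For Cyp2b13 it was with Cyp2c65 (0.963), Sult3a1 (0.937), Meig1 (0.907), Ginm1 (0.865) and Orm3 (0.859). For Cyp2b9 it was with Ginm1 (0.918), Rsph4a (0.906), Saxo2 (0.879), the kinase gene Pik3cb (0.857) and Cyp2c55 (0.851). Cyp2c55 stood in the lists of Cyp2b10 and Cyp2b9, Ginm1 in those of Cyp2b9 and Cyp2b13, and no gene in all 3. In adenomas 1 to 5 Cyp2c65 was at 3.67, 9.30, 5.51, 4.03 and 4.21, against 9.68 to 10.17 in treated liver and 3.51 to 3.84 in untreated liver. Adenoma 2 was the highest for Cyp2c65 and Cyp2b13 and adenoma 1 the lowest, but adenoma 3 had rank 2 for Cyp2c65 and rank 4 for Cyp2b13, and adenoma 4 the reverse.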

How the data were processed

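Per the labels' protocols, snap-frozen tissue gave the RNA for the Affymetrix arrays. The authors deposited log2 expression values for 45037 probe sets on 20 arrays, and the submitters' processing notes name RMA, without a version. RMA corrects background, makes array distributions alike and shrinks folds of dim probe sets. The number of arrays limits precision, since there are no reads to count.

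Probe sets were named from the platform annotation, with symbols updated by Entrez number through RefSeq (GRCm38.p6): 34945 had a single symbol, 932 several and 9160 none. A gene was represented by its probe set with the highest mean, after probe sets ending in _x_at were dropped where another existed, giving 18193 genes. Groups were taken from the labels. The functions lmFit and eBayes of limma 3.58.1 (R 4.3.3, two-sided) fitted all 4 groups together (16 residual and 3.22 prior degrees of freedom), with Benjamini-Hochberg adjustment over 18193 genes and a threshold of 0.05. The fit was tested on simulated data in which each gene had the same spread in all 4 groups. Spreads that differ between groups, as for the Cyp2b genes, were not simulated. In a separate fit, p-values of single probe sets were adjusted over all 45037. Exact permutation tests covered 252 splits. Folds are powers of the log2 difference. Promoters were aligned with Biopython 1.88.

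The genes and lists were chosen with earlier results of these data known. Named genes were the members, up to 3 called rises and 3 called falls of largest size per list and comparison, a fixed panel of CAR, Cyp2, growth hormone and Wnt genes, and the 5 nearest genes by Pearson's r over 20 arrays. Alternatives covered the probe set choice, dim genes, normalization, array weights, the replicate block, the groups fitted and arrays left out. Same-numbered arrays did not deviate together (correlations from -0.112 to 0.066). Differently numbered arrays were not set beside them, so this check cannot exclude that some samples share a mouse.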

Additional observations from a re-analysis of the deposited data

Results flagged for a closer look

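The difference of Cyp2b13 between adenomas and phenobarbital-treated liver was more negative than that between carcinomas and untreated liver. Adenoma effect minus carcinoma effect was -3.45 on the log2 scale by an interaction term (limma adjusted p = 0.00065), and diet and tumour stage change together in it. Carcinomas and untreated liver, with means of 5.01 and 5.83, were both near the bottom of the range of Cyp2b13, which left little room for a fall. Among 48 groups of 5 arrays tested for a single array far from the others, 3 were found, and chance gives about 1 in 20. Phenobarbital-treated array 3 had the highest value of the Cyp2b10 probe set 1425645_s_at, 13.33. Phenobarbital-treated array 1 had the highest Nr1i3, 10.0. Carcinoma 4 had the highest Axin2, 12.49.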

How the results depend on the processing

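Of 582 values of the 3 genes under alternatives, 513 kept their direction and side of the threshold, 55 lost the call, 7 gained it and 7 changed sign. Exact permutation p-values among them were held to 0.05 without adjustment over genes, unlike the limma values. The phenobarbital rises of Cyp2b10 (5.38 to 6.16) and Cyp2b13 (5.57 to 5.85) kept their calls throughout, as did all 3 genes in adenomas against carcinomas. Without untreated arrays 3 and 4, calls were lost for Cyp2b9 under phenobarbital (4.58), Cyp2b10 in carcinomas (-1.69), and Cyp2b9 (1.69) and Cyp2b13 (1.30) in adenomas against untreated liver. With only the compared groups fitted, Cyp2b9 (-1.34) and Cyp2b13 (-0.82) passed in carcinomas. They also passed in the exact permutation test, whose p of 0.0079 is not adjusted over genes. Fitting only the compared groups also ended the calls of Cyp2b10 in adenomas against treated liver (-2.41), as did its probe set 1425645_s_at (-1.93). In adenomas against untreated liver, Cyp2b9 (2.16) and Cyp2b13 (1.43) lost the call with the mean of probe sets, trend and robust settings, only the compared groups, every probe set and the exact test, Cyp2b9 also after quantile normalization (2.11), and Cyp2b13 with array weights (1.04). Leaving out 1 array gave -1.59 to -0.95 for Cyp2b9 and -0.88 to -0.77 for Cyp2b13 in carcinomas, -3.04 to -1.65 for Cyp2b10 in adenomas against treated liver, and 1.32 to 2.78 for Cyp2b9 and 0.81 to 1.95 for Cyp2b13 in adenomas against untreated liver. The difference of tumour effects of Cyp2b10 changed sign with the mean of probe sets (0.85) and with its other probe sets (1.15 and 1.58), and ran from -0.81 to 0.59 with 1 array left out, where that of Cyp2b9 ran from -2.38 to -0.92. With the replicate block, Cyp2b13 in adenomas against untreated liver (1.43) lost its call (adjusted p = 0.054), no other call of the 3 genes changed (Cyp2b10 under phenobarbital 5.62), and 39 genes were called under phenobarbital with and without it. That count was 265 with only the compared groups, 205 with array weights and 23 to 49 with 1 array left out. The phenobarbital difference of Nr1i3 was -0.01 without untreated array 4, at most 0.38 with 1 array left out, and -0.22 without arrays 3 and 4. Of 2730 values of other genes and lists, 2624 kept their call, 48 lost it, 5 gained it, 2 changed sign and 51 counts moved. The causes were not tested.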
